A study of Mus musculus with 6 samples.

Results

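The genes described here are 49 listed genes of the actin cytoskeleton and of focal adhesions, the plaques through which actin filaments pull on integrins. They comprise the actins, the transcription factor SRF and its cofactors, filament crosslinkers, adhesion plaque proteins, myosin and its regulators, actin turnover factors and the linkers of actin to the plasma membrane. They were chosen by name from the platform annotation, using rows that list a single gene and, of several rows of a gene, the one with the highest mean. Of the 49 genes, 47 were measured in this way, out of 22180 genes in all. The kinase genes Ilk and Ptk2 were not analysed here, since Ilk lies only on rows that list several genes and no row named Ptk2 was used. Mrtfa, Mrtfb and Diaph1 were listed under the older symbols Mkl1, Mkl2 and Diap1. A separate set of genes that mark the contractile apparatus of smooth muscle was left out of the list. The list is not free of smooth muscle genes, since it holds Actg2, an actin gene of smooth muscle.

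The samples are mouse embryonic stem cells (ESCs) in which Dgcr8 was knocked out; its product binds primary miRNA transcripts for the nuclease Drosha. All 6 samples carry this Dgcr8-/- genotype, controls included. The 3 control samples carry a control hairpin, and the 3 miR-302 samples carry sh-miR-302, a hairpin that serves as a mimic of miR-302. The cell line or clone, the culture conditions, the number of days with a hairpin and which miR-302 member was used are details not given in the sources used here. No ESCs with intact Dgcr8 entered the comparison, and the array row of Dgcr8 lists a second gene and was not used. The comparison asks which transcripts change when 1 miRNA family is returned to cells without canonical miRNAs. The values are log2 expression levels of single-colour arrays, as processed by the authors. A gene is said to have risen, fallen or been called where limma's Benjamini-Hochberg adjusted p over all 22180 genes was under 0.05.

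Cells without Dgcr8 cannot cut primary miRNA transcripts, whereas short hairpins join the pathway after that step. MiR-302 is a miRNA of pluripotent cells that pairs with target messages mainly through its seed, bases 2 to 8. The mature 3p sequences of 3 mouse members, from RefSeq (GRCm38.p6, chromosome 3, plus strand), are shown because the hairpin of the treated group is labelled as a mimic of this family; bases 2 to 8 are in capitals. Mmu-miR-302a was not analysed here, and these letters are not a readout of the hairpin used.
mmu-miR-302b-3p: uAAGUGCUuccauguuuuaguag
mmu-miR-302d-3p: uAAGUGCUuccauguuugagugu
mmu-miR-302c-3p: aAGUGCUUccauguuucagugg
The first pair share the seed AAGUGCU. The third sequence starts 1 base later, so that its bases 2 to 8 read AGUGCUU, and it holds AAGUGCU from base 1.

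Actin filaments grow from monomers, are bundled by crosslinkers, are pulled by myosin and are taken apart by severing factors. The same cycle feeds back on transcription. Monomeric actin holds the cofactors MRTF-A and MRTF-B (genes Mrtfa and Mrtfb) in the cytoplasm. When monomers are used up in filaments, MRTFs enter the nucleus and activate genes together with SRF, which binds the CArG box, a palindromic DNA motif. Many genes of the cytoskeleton, among them actin and vinculin genes and Srf itself, are textbook SRF targets, and several genes of the list are there for that reason.

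The miR-302 array of replicate 1 stood apart. Over all genes, the SD of its log2 differences from miR-302 replicates 2 and 3 was 0.339 for each, against 0.204 between replicates 2 and 3, 0.201 to 0.217 between control arrays and 0.392 to 0.468 between control and miR-302 arrays. Counts over the main list and over all pathway genes are therefore given with and without it, and so is the value of a gene of the main list where leaving it out changed the call. With 3 arrays a group, the number of arrays limits the precision. In bulk RNA, more cells of a type and more RNA per cell cannot be told apart.

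Of the 47 measured genes 17 rose, 3 fell and 27 were not called with miR-302. The 17 genes are 36.2% of the list, beside 7.18% of all 22180 genes called higher, and the 3 lower genes are 6.38%, beside 9.25% called lower. The rises were led by Flnc, the filamin C gene, and by the skeletal muscle actin gene Acta1, while the falls were those of Rdx, Lima1 and Tln2. Rises of at least 1.5-fold were called for 11 genes of the list, which is 23.4%, beside 2.87% of all genes, and a fall of that size for 1 gene, beside 4.17%. Over the list the median log2 fold change was 0.25, with quartiles of 0.07 and 0.63, whereas the median over all genes was 0.01, with quartiles of −0.15 and 0.15. In 23 genes all 3 miR-302 arrays lay above all 3 control arrays, and in 5 genes all lay below. These are 48.9% and 10.6% of the list, beside 16.8% and 19% of all genes. Without miR-302 replicate 1, 23 genes were higher and 3 lower, beside 11.2% and 13.1% of all genes. Dropping another array instead gave 10 to 12 higher and 2 lower genes, beside 3.09% to 3.88% of all genes higher and 4.7% to 5.48% lower in the same fits. Of the 20 called genes, 12 stayed past the threshold whichever of the 6 arrays was dropped, 10 of them higher and 2 lower.

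**Figure D1:**
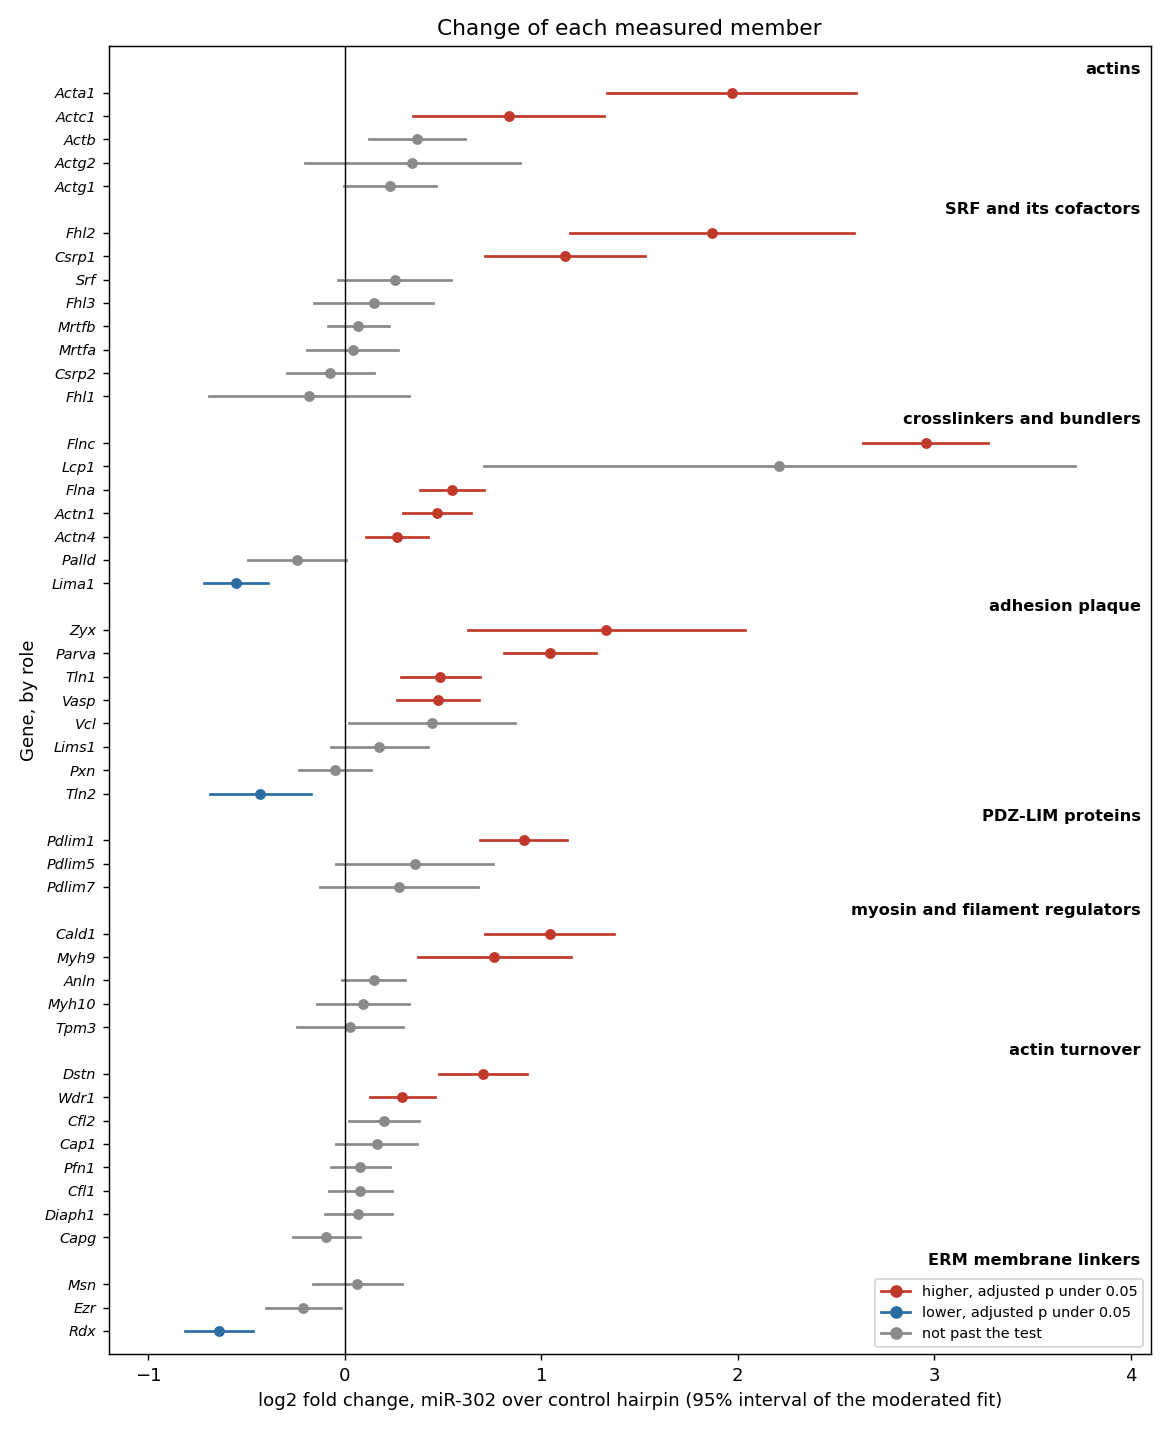
Log2 fold change of miR-302 over control hairpin (horizontal axis) for each of the 47 measured genes, grouped by role, as points with the 95% interval of the moderated fit; red marks the 17 genes called higher, blue the 3 called lower and grey the 27 not called. Flnc lies farthest to the right at 2.96, and Rdx, Lima1 and Tln2 lie left of 0.

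The promoters are shown next because several genes of the list are there as known SRF targets. RefSeq promoters (GRCm38.p6, 250 bases before to 50 bases after a gene's start) were at hand for 40 of the 47 genes. None was at hand for Actb, Actg2, Csrp2, Diaph1, Parva, Pxn and Tln2, which were not searched. The promoters were searched on both strands for the perfect CArG box, 2 C, 6 letters that are A or T, and 2 G. It was found for 8 of these 40 genes (20%), whereas 535 of 32851 promoters (1.63%) held one, as did 282 of the 16918 tested genes with a promoter (1.67%). The share in the list was partly set by the choice of known SRF targets and is no finding about these data. Each window below runs 10 bases to either side of the box, in capitals, and reads 5′ to 3′ along the gene's own strand.
Acta1, chr8:123894829-123894858, minus strand: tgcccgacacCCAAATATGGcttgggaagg
Actc1, chr2:114052903-114052932, minus strand: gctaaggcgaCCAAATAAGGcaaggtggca
Actg1, chr11:120348566-120348595, minus strand: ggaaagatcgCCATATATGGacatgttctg
Srf, chr17:46556225-46556254, minus strand: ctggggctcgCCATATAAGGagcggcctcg
Srf, chr17:46556205-46556234, minus strand: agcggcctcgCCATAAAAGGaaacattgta
Fhl2, chr1:43163973-43164002, minus strand: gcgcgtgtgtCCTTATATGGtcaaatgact
Fhl2, chr1:43196838-43196867, minus strand: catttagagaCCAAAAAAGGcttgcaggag
Vcl, chr14:20929161-20929190, plus strand: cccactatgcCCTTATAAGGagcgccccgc
Lima1, chr15:99820177-99820206, minus strand: ctcactttgtCCTTATAAGGctatcctgtt
Fhl1, chrX:56779571-56779600, plus strand: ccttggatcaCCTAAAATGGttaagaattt
The box began 47 bases before the start in Actc1 and in Lima1, 73 in Acta1 and 90 in Actg1. Srf held a pair of boxes, 82 and 62 bases before its start, and the 2 Fhl2 windows belong to 2 different starts of that gene. A box was found in 3 of the 16 called-higher genes of the list with a promoter, in 1 of the 2 called lower and in 4 of the 22 not called. These classes hold few genes, and whether a box goes with a change was not tested. Over all tested genes the share with a box was 1.95% of those called higher, 1.73% of those called lower and 1.63% of those not called. A match is a description of these letters and not a measured binding site, and imperfect boxes were not searched.

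Of the 5 actin genes, 2 rose and 3 were not called. Acta1, which encodes the actin of skeletal muscle, was 6.36, 6.48 and 6.51 in the control arrays and 7.76, 8.65 and 8.85 with miR-302. The groups did not overlap, and replicate 1 was the lowest of the miR-302 arrays. The log2 change was 1.97 ± 0.27 (SE), 3.92-fold (limma, adjusted p = 0.00501). Actc1, the cardiac muscle actin gene, read 4.37, 4.59 and 4.94 in control cells and 5.21, 5.35 and 5.84 with miR-302, a log2 change of 0.83 ± 0.20 (adjusted p = 0.0357). These levels lie around or below the median of an array (5.60 to 5.62), where a level cannot be told from background, and dropping miR-302 replicate 2 or 3, or replicate 1 or 2 of the control hairpin, ended the call (adjusted p up to 0.113, and 0.0257 without miR-302 replicate 1). The promoters of Acta1 and Actc1 hold a CArG box, as printed above, and so does that of Actg1, which was not called.

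The cytoplasmic actin genes, whose products build the filaments of non-muscle cells, were not called. Actb, the beta actin gene, was 11.19, 10.98 and 11.06 in control cells and 11.56, 11.27 and 11.50 with miR-302. All miR-302 values lay above all control values, and the difference of 0.37 ± 0.10 (SE) had an adjusted p of 0.0554. It passed the test without miR-302 replicate 2 (adjusted p = 0.0426). Its adjusted p was 0.0879 without replicate 1 and at most 0.168 in the other fits that left out an array. A level filter, an intensity trend with a robust prior and quantile normalization also gave a call (limma, adjusted p = 0.0249, 0.0159 and 0.0485). Array weights gave one too, whereas a replicate block and array centring were among the settings that did not (adjusted p = 0.0536 and 0.0643). Actg1, the gamma actin gene, read 11.95, 11.78 and 11.81 in control cells and 11.93, 12.23 and 12.07 with miR-302 (log2 change 0.23 ± 0.10, adjusted p = 0.174), so that replicate 1 lay inside the control range. All 6 rows of Actg1 gave a positive difference, from 0.14 to 0.32, and none was called. Actg2 is a muscle actin gene too, that of enteric smooth muscle, and was not called either. It was 5.34, 5.56 and 5.0 against 5.19, 6.0 and 5.74, and the groups overlapped (0.34 ± 0.23, adjusted p = 0.378). The promoter of Actg1 holds a CArG box, and those of Actb and Actg2 were not at hand. Actin genes have very similar coding sequences, and whether their rows cross-hybridise was not tested.

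**Figure D2:**
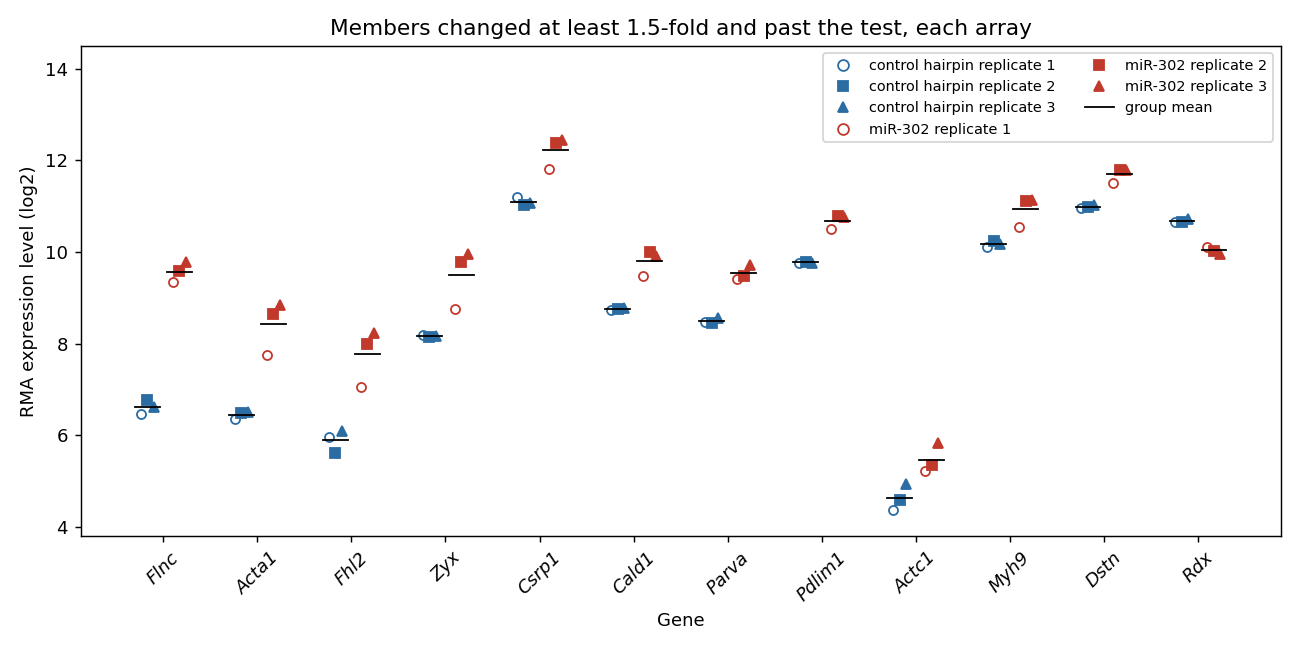
RMA level on the log2 scale (vertical axis) in each of the 3 control hairpin arrays (blue) and 3 miR-302 arrays (red) for the 12 genes called with a change of at least 1.5-fold, ordered by change, with open circles for replicate 1 and bars for group means. In all 11 rising genes the open red circle of miR-302 replicate 1 is the lowest red point and still lies above the blue ones; Rdx at the right end is the falling gene.

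SRF and the MRTF genes themselves were not called. Srf read 9.45, 9.29 and 9.40 in control cells and 9.40, 9.66 and 9.84 with miR-302, and the log2 change of 0.25 ± 0.12 (SE) had an adjusted p of 0.218. Replicate 1 equalled a control value, and without it the change was 0.37 and called (adjusted p = 0.0319), whereas dropping another array gave an adjusted p between 0.285 and 0.471. Mrtfa was 7.86, 7.87 and 7.87 against 7.74, 7.90 and 8.08, a log2 change of 0.04 with a 95% interval from −0.19 to 0.27. Mrtfb was 9.79, 9.80 and 9.85 against 9.87, 9.92 and 9.86 (0.07, 95% interval −0.08 to 0.22), and its weaker row gave −0.25, also not called.

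Among the LIM-domain proteins that bind SRF or its partners, 1 of the 3 FHL genes and 1 of the 2 CSRP genes rose. Fhl2, whose product binds SRF and is itself a known SRF target, was 5.97, 5.62 and 6.10 in control cells and 7.06, 8.0 and 8.24 with miR-302. The highest control array lay well under the lowest miR-302 array, and the change was 1.87 ± 0.30 (SE), 3.66-fold (adjusted p = 0.00905). Its control values lie around or little above the array median, where a level cannot be told from background, so that this fold rests on a control level not shown to be above background. The other family members were not called: Fhl3 changed by 0.15 ± 0.13 and Fhl1 by −0.18 ± 0.21 (adjusted p = 0.502 and 0.631). Fhl1 read 8.97, 9.07 and 9.06 in control cells and 8.32, 9.09 and 9.14 with miR-302, so that replicate 1 lay below all other arrays. Csrp1, which encodes a LIM protein of actin bundles that binds alpha-actinin and zyxin, was 11.21, 11.02 and 11.07 against 11.82, 12.39 and 12.45 (1.12 ± 0.17, 2.17-fold, adjusted p = 0.00752). Csrp2 changed by −0.07 ± 0.09 (adjusted p = 0.662). Both Fhl2 and Csrp1 stayed called whichever array was dropped, but not in an unmoderated test per gene (adjusted p = 0.0642 and 0.0526).

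Of the 7 crosslinkers and bundlers 4 rose, 1 fell and 2 were not called. Flnc, which encodes the muscle-enriched filamin, had the largest change of the list. It read 6.47, 6.76 and 6.62 in control cells and 9.34, 9.59 and 9.79 with miR-302. The groups lay far apart beside the spread within each (SD 0.145 in control and 0.226 in miR-302 arrays). Its log2 change was 2.96 ± 0.13 (SE), 7.76-fold (adjusted p = 0.000131). Flna, the ubiquitous filamin, rose from 10.71, 10.66 and 10.68 to 11.17, 11.22 and 11.30 (0.55 ± 0.07, 1.46-fold, adjusted p = 0.00405). The non-muscle alpha-actinin genes also rose. Actn1 went from 10.32, 10.28 and 10.30 to 10.68, 10.78 and 10.85 (0.47 ± 0.07, adjusted p = 0.00774). Actn4 went from 12.21, 12.21 and 12.29 to 12.48, 12.50 and 12.53 (0.27 ± 0.07, adjusted p = 0.0368), and dropping any array except miR-302 replicate 1 ended the call (adjusted p from 0.0841 to 0.122, and 0.0287 without replicate 1).

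Lima1, which encodes EPLIN, a protein that bundles and stabilises filaments, fell. It was 9.33, 9.29 and 9.30 in control cells and 8.78, 8.80 and 8.68 with miR-302, 1.47-fold lower (log2 change −0.55 ± 0.07, adjusted p = 0.00383), and stayed called whichever array was dropped. Its promoter holds the CArG box CCTTATAAGG, the same 10 letters as in Vcl. Palld, the palladin gene, was 7.05, 7.11 and 7.08 against 6.62, 6.91 and 6.98 (−0.24 ± 0.11, adjusted p = 0.176). Lcp1, which encodes the bundling protein L-plastin of blood cells and of some epithelial and tumour cells, read 6.03, 6.37 and 6.21 in control cells and 6.79, 9.10 and 9.35 with miR-302. Its 3 miR-302 values all lay above the controls, but replicate 1 was far below the other 2, and with an SE of 0.63 the change of 2.21 was not called (adjusted p = 0.0590). Without replicate 1 the change was 3.02 (adjusted p = 0.000146), and dropping another array gave an adjusted p between 0.132 and 0.163. The control level of Lcp1 is little above the array median and not shown to be above background. None of 5 leukocyte markers was called by limma, beside 7.18% of all genes called higher and 9.25% called lower. Of these 5, 0 had an unadjusted p under 0.05, and 3 lay below the array median. Their list means were 6.30 to 6.32 in control arrays and 6.29 to 6.58 with miR-302. Cd68 of this list was 9.98, 9.82 and 9.79 against 10.69, 9.99 and 10.02, without overlap (limma, adjusted p = 0.252). Whether leukocytes had a part in the Lcp1 values was not tested.

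Of the 8 measured adhesion plaque genes 4 rose, 1 fell and 3 were not called. Zyx encodes zyxin, a LIM protein that moves to stretched filaments and recruits VASP. It was 8.19, 8.15 and 8.17 in control cells and 8.75, 9.79 and 9.96 with miR-302. The control arrays lay close together, whereas replicate 1 lay about a log2 unit under the other miR-302 arrays. The log2 change was 1.33 ± 0.30 (SE), 2.51-fold (adjusted p = 0.0265). Without it the change was 1.71 (adjusted p = 0.000153), and dropping any other array ended the call (adjusted p from 0.0767 to 0.0865). Parva, the gene of alpha-parvin, which joins integrin-linked kinase to actin, was 8.47, 8.44 and 8.57 against 9.42, 9.47 and 9.72 (1.04 ± 0.10, 2.06-fold, adjusted p = 0.00163), and here replicate 1 lay next to replicate 2. Vasp, which encodes a filament elongation factor, was 8.43, 8.57 and 8.42 against 8.82, 9.0 and 9.03 (0.48 ± 0.09, adjusted p = 0.0139). Dropping miR-302 replicate 2 or 3, or replicate 1 or 3 of the control hairpin, ended the call of Vasp (adjusted p up to 0.0615).

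The talin genes, whose products activate integrins, moved in opposite directions. Tln1 rose from 10.08, 10.08 and 10.10 to 10.43, 10.60 and 10.69 (log2 change 0.49 ± 0.08 SE, adjusted p = 0.0117), which was not called without control hairpin replicate 1 (adjusted p = 0.0507). Tln2 fell from 7.80, 7.70 and 7.88 to 7.56, 7.21 and 7.32 (−0.43 ± 0.11, adjusted p = 0.0391), and dropping any array except miR-302 replicate 1 ended that call (adjusted p from 0.0785 to 0.131, and 0.00769 without replicate 1). Vcl encodes vinculin, which binds talin under tension. It was 10.53, 10.57 and 10.61 in control cells and 10.58, 11.21 and 11.25 with miR-302, so that replicate 1 had the control level and replicates 2 and 3 did not. Over all arrays the change of 0.44 ± 0.18 was not called (adjusted p = 0.149). Without replicate 1 it was 0.66 (adjusted p = 0.00148), and in the fits without another array the adjusted p lay between 0.259 and 0.347. Pxn, the paxillin gene, changed by −0.05 (95% interval −0.23 to 0.13), and Lims1, the gene of the parvin partner PINCH, by 0.18 (−0.07 to 0.42).

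Of the 3 PDZ-LIM genes, whose products sit on alpha-actinin along stress fibres, Pdlim1 rose. It was 9.77, 9.78 and 9.77 in control cells and 10.50, 10.78 and 10.77 with miR-302 (0.91 ± 0.09 SE, 1.88-fold, adjusted p = 0.00215). Pdlim5 and Pdlim7 had replicate 1 at the control level. Pdlim5 was 8.81, 8.83 and 8.99 against 8.85, 9.36 and 9.49, and Pdlim7 was 8.45, 8.20 and 8.25 against 8.20, 8.71 and 8.82. Neither was called over all arrays (adjusted p = 0.210 and 0.332). Without replicate 1 their changes were 0.55 and 0.47, both called (adjusted p = 0.00833 and 0.0211), while with another array dropped the adjusted p reached 0.457 and 0.635.

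Of 5 genes of myosin and filament regulators 2 rose. Cald1, which encodes caldesmon, an inhibitor of actomyosin, went from 8.73, 8.75 and 8.78 to 9.48, 10 and 9.91 (1.04 ± 0.14 SE, 2.06-fold, adjusted p = 0.00468). Myh9 and Myh10 encode the heavy chains of non-muscle myosin IIA and IIB. Myh9 was 10.11, 10.25 and 10.17 against 10.55, 11.12 and 11.14, a log2 change of 0.76 ± 0.16 (1.69-fold, adjusted p = 0.0235). Its groups did not overlap. Without miR-302 replicate 1 its change was 0.95 (adjusted p = 0.000648), and dropping any other array ended the call (adjusted p from 0.0675 to 0.0859). Myh10 was 9.03, 9.12 and 9.11 against 8.99, 9.25 and 9.30, and the groups overlapped (0.09, 95% interval −0.14 to 0.33). Tpm3, a tropomyosin gene, changed by 0.03 and Anln, the gene of the cytokinesis scaffold anillin, by 0.15 (adjusted p = 0.909 and 0.195).

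Of 8 genes of actin turnover 2 rose and 6 were not called. Dstn, which encodes the severing factor destrin, was 10.97, 10.99 and 11.02 in control cells and 11.51, 11.79 and 11.79 with miR-302 (0.70 ± 0.10 SE, 1.63-fold, adjusted p = 0.00499). The related cofilin genes were not called: Cfl1 changed by 0.08 (95% interval −0.08 to 0.24) and Cfl2 by 0.20 (0.02 to 0.38, adjusted p = 0.122). Wdr1, whose product AIP1 helps cofilin to take filaments apart, rose from 11.62, 11.59 and 11.61 to 11.82, 11.93 and 11.95, a log2 change of 0.29 ± 0.07 (adjusted p = 0.0318). Dropping any array except miR-302 replicate 1 ended the call of Wdr1 (adjusted p from 0.0949 to 0.107, and 0.0122 without replicate 1). The profilin gene Pfn1 changed by 0.08, the formin gene Diaph1 by 0.07 and the capping protein gene Capg by −0.09, all uncalled. Cap1, the gene of a protein that recycles monomers, was 11.53, 11.54 and 11.50 against 11.53, 11.76 and 11.77. It was not called over all arrays (adjusted p = 0.263), but was without replicate 1, where the change was 0.24 (adjusted p = 0.0352), and had an adjusted p of 0.385 to 0.507 with another array dropped.

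Ezrin, radixin and moesin link filaments to the plasma membrane, and none of their genes rose. Rdx, the radixin gene, was 10.65, 10.66 and 10.72 in control cells and 10.12, 10.03 and 9.96 with miR-302, 1.56-fold lower (log2 change −0.64 ± 0.07 SE, adjusted p = 0.00294), and stayed called whichever array was dropped. Ezr was 11.57, 11.47 and 11.52 against 11.19, 11.37 and 11.37. Its groups did not overlap either, with a change of −0.21 ± 0.08 that was not called (adjusted p = 0.130). Msn changed by 0.06 (95% interval −0.16 to 0.29).

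The median SD over the 3 arrays was 0.05 for the control arrays and 0.16 for the miR-302 arrays over the 47 genes, and 0.09 and 0.13 over all genes. In each of the 17 genes that rose, miR-302 replicate 1 was the lowest of its group. For the 11 genes that rose at least 1.5-fold, the distance of replicate 1 from the control mean was between 34.0% (Zyx) and 88.6% (Flnc) of the mean distance of replicates 2 and 3, with a median of 60.0%. Over all 636 genes with such a rise the median was 74.3%. The genes thus ranged from Flnc and Parva, with replicate 1 near the other miR-302 arrays, to Vcl, Cap1 and Srf, with replicate 1 near the controls. The 6 genes not called over all arrays but called without this array were Vcl, Lcp1, Pdlim5, Pdlim7, Srf and Cap1, all higher. For the 20 called genes the log2 change without this array was 1.02 to 1.28 times that with all arrays, with a median of 1.14. Among genes not called either way the size of some small changes moved more: Actg2 went to 0.57, Lims1 to 0.27, Fhl3 to 0.26, Myh10 to 0.19, Msn to 0.15 and Mrtfa to 0.12. Csrp2 went to −0.16, Palld to −0.135, Diaph1 to 0.03 and Pxn to 0, while Fhl1 and Tpm3 changed sign, to 0.08 and −0.035.

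**Figure D3:**
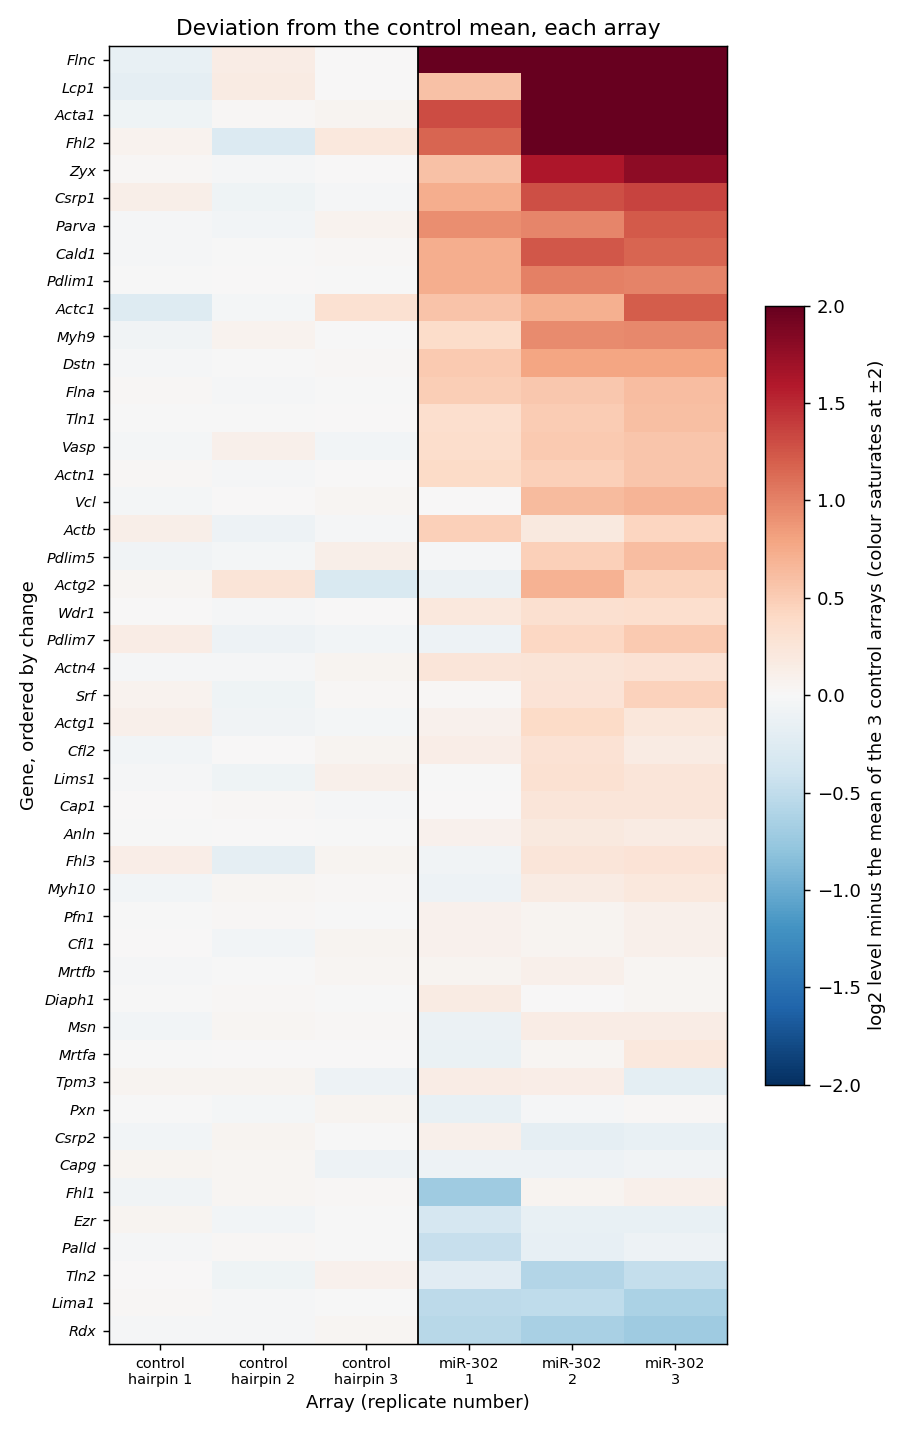
Colour gives the log2 level minus the mean of the 3 control arrays for each of the 47 genes (rows, ordered by change) in each of the 6 arrays (columns, by replicate number), with red for higher, blue for lower and saturation at 2 log2 units. The control columns are pale throughout, and the column of miR-302 replicate 1 is paler than those of replicates 2 and 3 in most red rows.

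Other genes of the actin pathway were followed through 8 lists of 102 genes, none of them in the main list, of which 92 were measured. Of these 92, 21 rose, 11 fell and 60 were not called, beside 7.18% of all genes called higher and 9.25% called lower. Their median log2 change was 0.03. Without miR-302 replicate 1, 29 were higher and 14 lower, beside 11.2% and 13.1% of all genes. Dropping another array left 11 or 12 higher and 5 to 7 lower. Of all genes, 3.09% to 3.88% were higher and 4.7% to 5.48% lower in those fits. Of 6 measured subunits of the Arp2/3 complex, which starts branched filaments, 5 rose and none fell, with a median of 0.37. Of these 5, only Arpc4 stayed called when an array other than miR-302 replicate 1 was dropped. Arpc4 rose from 10.31, 10.25 and 10.30 to 10.72, 10.88 and 10.98 (0.57 ± 0.09 SE, adjusted p = 0.00703), and Arpc5 changed by 0.38 ± 0.08 (adjusted p = 0.0172). Dropping any array except miR-302 replicate 1 ended the calls of Arpc1a, Arpc2, Arpc5 and Arpc5l (adjusted p up to 0.104), and of Cttn (up to 0.0832). Of 11 WASP and WAVE genes, whose products activate that complex, 3 rose, among them Wasf2 (0.38 ± 0.06, adjusted p = 0.0501 without control hairpin replicate 1) and the cortactin gene Cttn (0.35 ± 0.07); at most 1 of the 3 stayed called when an array other than miR-302 replicate 1 was dropped. Of 11 other formin genes, whose products elongate unbranched filaments, 2 rose and 2 fell. Fhod3 went from 7.42, 7.32 and 7.40 to 6.38, 6.35 and 6.16 (−1.08 ± 0.08, adjusted p = 0.000851), while Fmn2 changed by 0.54 ± 0.08.

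Of 13 genes for capping, severing and monomer binding 2 rose and 1 fell, and the 1 that fell, Twf1, lost its call with any array except miR-302 replicate 1 dropped (adjusted p up to 0.0884). Gsn, the gelsolin gene, rose from 5.57, 5.82 and 6.16 to 7.29, 8.09 and 8.0 (1.94 ± 0.24 SE, 3.85-fold, adjusted p = 0.00393). Its control level too is around the array median and not shown to be above background. Tmsb4x, the gene of the monomer-binding peptide thymosin beta 4, rose from 8.5, 8.48 and 8.47 to 9.22, 9.68 and 9.57 (1.01 ± 0.12, adjusted p = 0.00367). In both genes replicate 1 was again the lowest miR-302 array. Of 20 other focal adhesion genes 5 rose and 2 fell, among them Sorbs3, the gene of the vinculin partner vinexin (1.24 ± 0.09), and the tensin gene Tns3 (−0.51 ± 0.07). With an array other than miR-302 replicate 1 dropped, 4 of these 5 and 1 or 2 of these 2 stayed called. The control level of Sorbs3 (5.87, 5.90 and 6.0) is little above the array median and not shown to be above background. Of 10 other non-muscle myosin and tropomyosin genes 3 rose and 1 fell, with Tpm4 and Myo1c changed by 0.93 ± 0.12 and 0.68 ± 0.10. With an array other than miR-302 replicate 1 dropped, 2 of these 3 stayed called, and the fall was called in some of these fits only.

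Of 17 other crosslinker genes 1 rose and 4 fell. Dropping any array except miR-302 replicate 1 left 0 and 2 of these calls: Sptan1, the 1 that rose (adjusted p up to 0.145), and Add3 and Fscn1, which fell (up to 0.095 and 0.0612), lost theirs. Actn3, the alpha-actinin gene of fast muscle fibres, fell from 9.23, 9.11 and 9.13 to 7.99, 6.96 and 6.97 (−1.85 ± 0.27 SE, 3.61-fold lower, adjusted p = 0.00653), with replicate 1 between the control arrays and the other miR-302 arrays. Pls3, the gene of the widely expressed plastin, changed by −0.61 ± 0.08 (adjusted p = 0.00406). Of 4 other partners of SRF, the ternary complex factor gene Elk1 fell (−0.35 ± 0.08, adjusted p = 0.0245), with adjusted p up to 0.095 when control hairpin replicate 1 or 3, or replicate 2 or 3 of miR-302, was dropped. Myocd, the gene of the muscle cofactor myocardin, was 5.54, 5.76 and 5.24 against 5.72, 5.82 and 6.11, with overlapping groups near the array median (adjusted p = 0.173).

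Markers of some other cell types moved beside these genes. Of all genes, 7.18% were called higher and 9.25% lower. The counts of striated muscle, feeder fibroblast and ESC markers below are near these shares for lists so short. They are no finding about those cells. Of 11 smooth muscle genes 9 rose and none fell, and the list's mean level was 6.81 to 6.90 in control arrays and 8.30 to 8.72 with miR-302, lowest in replicate 1. Tagln, the SM22 gene, rose from 6.0, 5.94 and 5.79 to 9.54, 10 and 9.80, whereas Myh11, the smooth muscle myosin gene, was 6.04, 6.35 and 6.10 against 6.11, 6.21 and 6.07 and was not called (adjusted p = 0.867). The control level of Tagln and both groups of Myh11 are little above the array median and not shown to be above background. Of 9 trophectoderm markers 7 rose and none fell, with list means of 6.42 to 6.54 and of 7.69 to 8.40, again lowest in replicate 1. With an array other than miR-302 replicate 1 dropped, 8 or 9 smooth muscle genes and 6 or 7 trophectoderm markers stayed called. Of all genes, 3.09% to 3.88% were called higher in those fits. The part of these marker genes in the changes of the actin cytoskeleton genes was not tested. Of 8 striated muscle markers 1 rose, Tnnt2 (0.32 ± 0.08 SE, adjusted p up to 0.142 with any array except miR-302 replicate 1 dropped), and none fell. Nkx2-5 of that list, with an adjusted p of 0.0579, was called without miR-302 replicate 1 or without miR-302 replicate 2 (0.0473 and 0.0443). Of 9 feeder fibroblast markers none rose and Thy1 fell (−0.38 ± 0.09 SE, adjusted p up to 0.11 with any array except miR-302 replicate 1 dropped), with list means of 5.22 to 5.26 and of 5.24 to 5.40 and with 5 of the 9 genes below the array median. None of 8 ESC markers was called by limma, and 2 had an unadjusted p under 0.05, with list means of 10.29 to 10.32 in control arrays and 10.13 to 10.41 with miR-302. Without miR-302 replicate 1, Sox2 and Zfp42 of the ESC list were called lower (adjusted p = 0.00628 and 0.0119), Col1a1 of the feeder list higher and Lum, another gene of that list, lower (adjusted p = 0.0203 and 0.0484). Zfp42, Lum, Tnnt2 and the genes Arpc1a, Arpc2, Arpc5l, Twf1, Sptan1, Add3 and Fscn1 were named here with their values in view, beyond the naming rule.

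**Figure D4:**
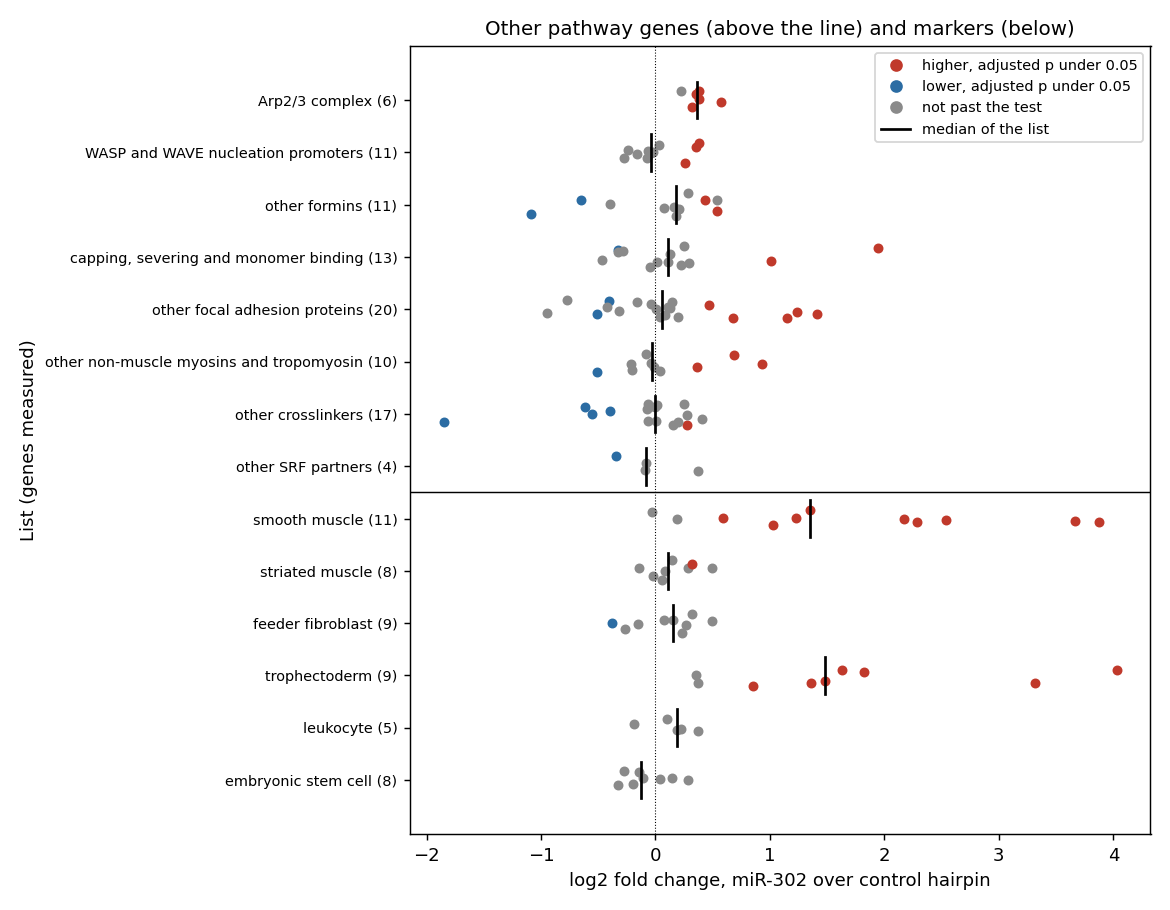
Log2 fold change of miR-302 over control hairpin (horizontal axis) for each measured gene of the 8 pathway lists (above the line) and 6 marker lists (below it), with a bar at each list's median; red marks genes called higher, blue genes called lower and grey genes not called. The Arp2/3 points lie right of 0 around 0.37, and the smooth muscle and trophectoderm markers reach beyond 3.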

How the data were processed

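Biotin-labelled RNA of 6 samples was hybridised to single-colour arrays, per the labels' protocols. Per the submitters' processing notes the authors used RMA, and the deposited values are read as log2 expression, the base that RMA gives. Software version and genome build: not given in the sources used here. RMA aligns the distributions of the arrays and so hides a common shift. Of 33649 rows, 23521 list a single gene, and the row with the highest mean stood for each of 22180 genes. Groups and replicate numbers came from the sample titles; per the design text they are independent biological samples, and 0 columns lacked a sample.

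All genes were fitted in R 4.3.3 with limma 3.58.1 (two-sided moderated test from lmFit and eBayes, Benjamini-Hochberg over all genes, threshold 0.05). SE is the moderated standard error, and fold changes are differences of group means. The fit was tested on simulated data with the control levels and the spread of each gene. It recovered 38.6% of 70 genes set to change 1.5-fold, 84.4% of 64 at 2-fold and 100% of 66 at 4-fold, with 8 of 155 calls false. The simulated noise was independent and normal, with the same SD in both groups and no deviating array. Only those genes were changed, whereas 1592 genes were called higher and 2051 lower in the data. The simulated rates therefore need not hold for the data. The genes and lists were chosen with earlier results of these data known, so no test was run on a list as a whole. A further pathway list is not reported here. Named are all measured genes of the main list, of each pathway list the 2 genes with the smallest p, and of marker lists genes with the smallest or largest change. Alternatives were a replicate block, leaving out each array, a level filter, an intensity trend with a robust prior, array centring, quantile normalization, other uses of a gene's rows, array weights, an unmoderated test and a fold minimum; counts of pathway genes were added to them after the data were seen. Python 3.11.15 with matplotlib 3.10.9 made the figures.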

Additional observations from a re-analysis of the deposited data

How the results depend on the processing

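Leaving out 1 array gave 10 to 23 higher and 2 to 3 lower genes of the main list, and 11 to 29 higher and 5 to 14 lower pathway genes. The same fits called 3.09% to 11.2% of all genes higher and 4.7% to 13.1% lower. With a fold change of at least 1.5 as a further condition, 11 and 1 genes of the main list and 8 and 4 pathway genes remained called. Of all genes, 2.87% were higher and 4.17% lower under that condition. Array weights called 16 pathway genes lower, beside 13.5% of all genes. They gave miR-302 replicate 1 a weight of 0.285 against 1.15 to 1.48 for the others. The list's median log2 change was 0.17 to 0.30 under the alternatives tried. With the replicate number as a block 15 genes of the main list were higher and 2 lower, beside 4.35% and 5.99% of all genes, and 12 pathway genes were higher and 8 lower. An unmoderated test ended 6 calls of the main list, those of Fhl2, Csrp1, Actc1, Zyx, Myh9 and Tln2 (adjusted p from 0.0526 to 0.131). The replicate numbers are not stated to pair the samples and were not taken to do so. The deviations of same-numbered samples correlated at 0.0192, 0.0167 and 0.0085, against −0.0404 to 0.0237 for samples of different numbers. With so few arrays these values do not settle whether the samples were paired. Of 703 values of single genes under an alternative, 53 lost their call and 21 gained one. The gains were those of Actb, Anln, Cap1, Cfl2, Ezr, Lcp1, Pdlim5, Pdlim7, Srf and Vcl, with Ezr lower and the others higher. No called value changed sign, whereas 10 values of 5 uncalled genes (Fhl1, Tpm3, Mrtfa, Mrtfb and Msn) did, none above 0.0883 in size. Levels near the array median, as in Actc1, Actg2, Myocd, Myh11 and the controls of Fhl2, Lcp1, Gsn, Sorbs3 and Tagln, are limited by background.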
